A study of Homo sapiens with 6 samples.

Results

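The 44 genes described here encode the machinery that takes a cell from G2 through mitosis: cyclins and their kinase, the mitotic kinases, the spindle checkpoint, kinesin motors, kinetochore proteins, spindle proteins and the cytokinesis apparatus. They were taken by gene name from a list of mitosis and G2/M genes, and all 44 were found among the 58735 genes of the deposited table, each with a single row. All 44 passed the filter on low counts and were among the 17215 genes tested, with between 41 and 26312 counts in a library. The study measured RNA by sequencing in 6 libraries of LX-2, an immortalised and dividing line of human hepatic stellate cells, the cells that turn into matrix-producing myofibroblasts in an injured liver. Every library came from LX-2 cells of the genotype labelled WT that had received siRNA against NSUN2, an RNA cytosine methyltransferase, per the sample labels. The design text of the series also speaks of NAT10; groups were taken from the sample labels. In 3 libraries nothing further is labelled, and they are called untreated here; in the other 3 the cells were given TGF-β1 at 5 ng/ml, starting 48 hours after transfection, and RNA was taken 24 hours later. Cells without the NSUN2 siRNA were not analysed here, so each value below compares siRNA-treated cells with TGF-β1 against siRNA-treated cells without it. The labels give no harvest time for the untreated libraries, so TGF-β1 and a difference in time in culture cannot be told apart. The labels name the replicates biological without saying whether the cultures were separate, so the p-values measure the spread between these libraries.

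Entry into mitosis is driven by CDK1 bound to cyclin B, which CDC25 phosphatases switch on. Polo-like and Aurora kinases then build the spindle, kinesins move chromosomes and microtubules, and the spindle checkpoint holds back the anaphase-promoting complex until every kinetochore is attached. Most of these genes are transcribed in G2 and M under the MuvB-based complexes and FOXM1 and are silent in resting cells, which is why their RNA is often read as a sign of proliferation. Quiescent stellate cells of a healthy liver do not divide, and proliferation is part of their activation after injury.

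Depth was similar in the 6 libraries, with totals from 25828504 to 30034762 counts. Levels are given as CPM, counts scaled to a common library size with TMM factors. Pairs of libraries within a group were further apart than counting error, at 3.61 to 4.79 times the chi-square that such error gives. Of 10 stellate cell markers 7 had a mean of at least 1 CPM, led by COL1A1, SPARC and VIM. COL1A2, also among these 7, was low, with means of 1.30 CPM untreated and 3.18 CPM with TGF-β1. COL1A1 had means of 1418 and 3993 CPM. The summed level of the 10 markers was 3551 to 3597 CPM in untreated libraries and 6898 to 7571 CPM with TGF-β1. Most of it was COL1A1, SPARC and VIM. The activation marker ACTA2, of the same list, fell from a mean of 7.15 to 4.29 CPM, and PDGFRA was at 0.38 and 0.21 CPM without passing the test. The defining quiescence marker LRAT had 0 counts in every library, and DES had a mean of 0.064 CPM in untreated libraries and 0.076 CPM with TGF-β1. Summed markers of other cell types were at 1.51 to 2.37 CPM for endothelial cells, 7.97 to 10.1 CPM (untreated) and 2.90 to 6.001 CPM (TGF-β1) for leukocytes and macrophages, 2.72 to 3.58 CPM (untreated) and 3.94 to 5.37 CPM (TGF-β1) for epithelial cells, and 21.3 to 27.4 CPM for hepatocytes, the last almost all SERPINA1, with CYP3A4 and TTR at 0 in every library. Of the leukocyte markers CD14 fell with TGF-β1, from a mean of 8.49 to 3.71 CPM, and of the epithelial ones KRT7 rose, from 2.83 to 4.30 CPM, and the part of other cells in the values below was not tested. NSUN2 itself was measured at 81.4, 82.9 and 84.4 CPM in untreated libraries and 102.7, 97.03 and 101.9 CPM with TGF-β1. It rose by 21.3%, without overlap between groups (adjusted p = 1.57e-06, edgeR's quasi-likelihood F test). The groups thus differ in NSUN2 level as well as in TGF-β1, and the part of this difference in the values below was not tested.

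With TGF-β1 most of the mitotic genes were slightly lower: 30 of 44 fell, 1 rose and 13 did not pass the test (edgeR's quasi-likelihood F test, with Benjamini-Hochberg adjustment over all tested genes and a threshold of 0.05). Of all tested genes 18.7% fell and 20.2% rose, 38.9% in either direction. The summed level of the 44 genes was 8203, 8075 and 8222 CPM in the untreated libraries and 7345, 7309 and 7293 CPM with TGF-β1, so that the treated libraries lay together below all untreated ones, at 0.896 times their mean. In bulk RNA, fewer cells in G2 and mitosis and less of these transcripts per cell cannot be told apart. The median log2 fold change of the 44 genes was -0.14, against -0.0082 for all tested genes, and 40 of the 44 values were negative (90.9%, against 51.1% of all tested genes). No gene of the 44 changed by as much as 0.5 on the log2 scale: the values ran from -0.38 for ANLN to 0.13 for KIF14.

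The changes were small but the genes are abundant, and the median standard error (SE) of the 44 was 0.041 against 0.10 for all tested genes. Their median absolute log2 fold change, 0.14, was below the 0.22 of all tested genes. In 32 of the 44 genes every TGF-β1 library lay below every untreated one (72.7%), against 23.3% of all tested genes, and in 1 gene every TGF-β1 library lay above, against 24.1%. Of the 27 genes averaging 100 CPM or more 22 fell, of the 11 between 30 and 100 CPM 6 fell and 1 rose, and of the 6 below 30 CPM 2 fell. The median log2 fold change in these classes was -0.14, -0.13 and -0.18, while the SE ran from 0.029 to 0.043 in the first and from 0.075 to 0.29 in the last. The scaling sets the size of the change: with library totals alone the median of the 44 genes was -0.26 and that of all tested genes -0.13, and 39 of the 44 fell and 0 rose, where 31.1% of all tested genes fell. A change of scaling shifts all genes nearly alike. The distance between both medians, -0.13 under either scaling, was thus fixed in advance and is no separate check.

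**Figure D1:**
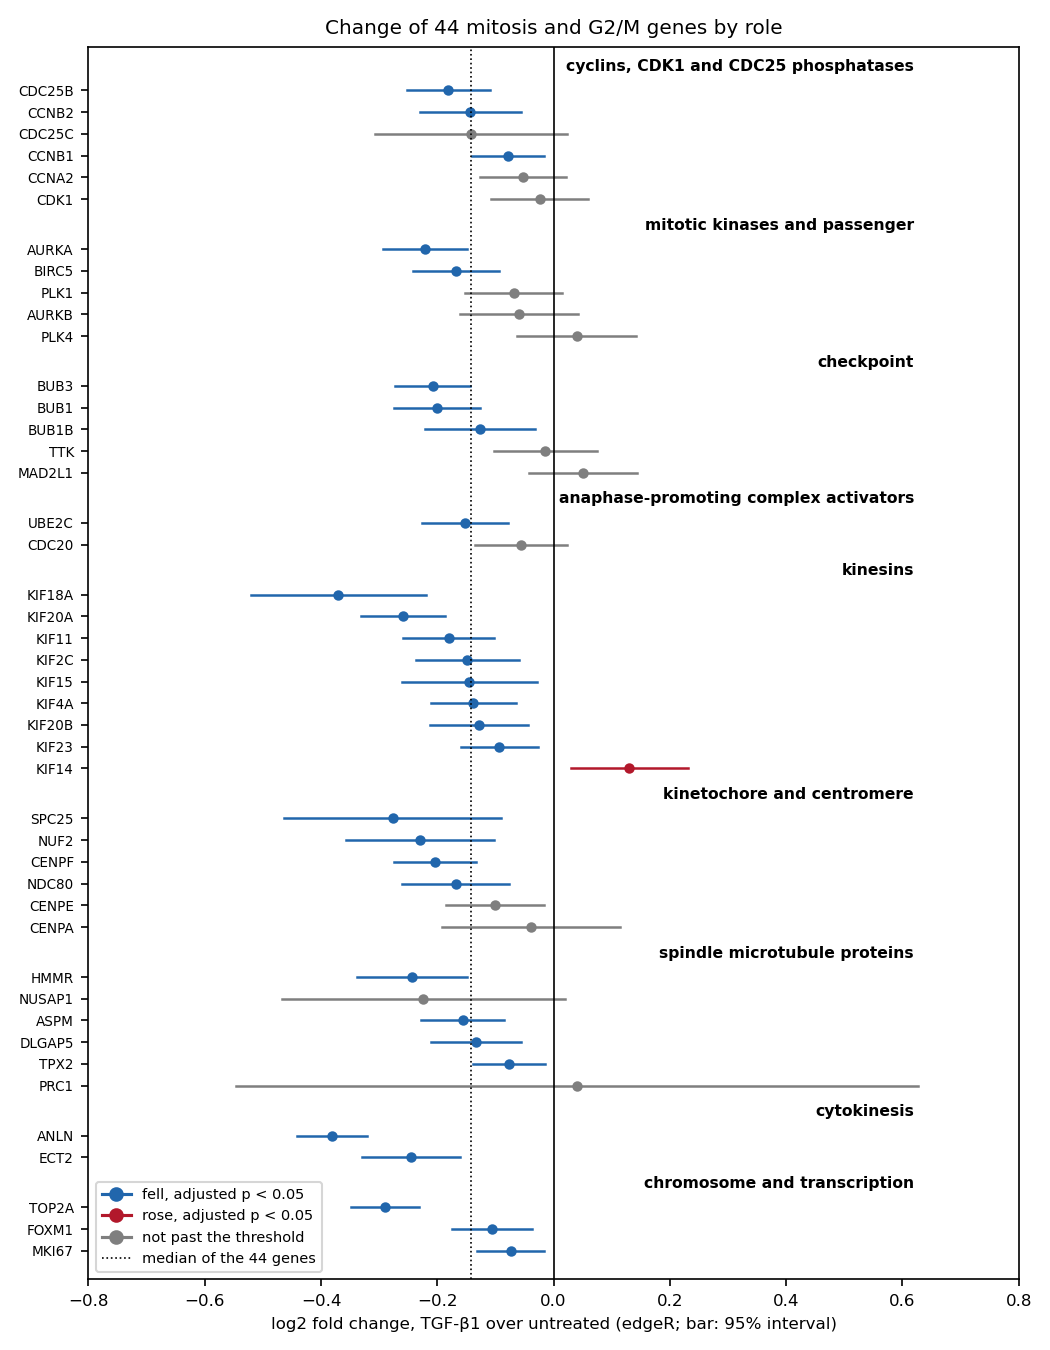
Each point is the log2 fold change of a gene, TGF-β1 over untreated, on the x axis, and each bar its 95% interval from the edgeR fit (3 libraries a group); genes are grouped by role on the y axis. Blue genes fell, the red gene (KIF14) rose and grey genes did not pass the test; most points lie close to the dotted median of -0.14, with ANLN, KIF18A and TOP2A farthest to the left.

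Most of the promoters hold a sequence element that the list did not use. The element is known from genes of this kind, so its frequency here is no independent support. The cell cycle homology region (CHR) is the element through which MuvB-based complexes bind such genes, and the CCAAT box is bound by NF-Y, which works with it. Both were searched as TTTGAA and CCAAT, on both strands, in RefSeq promoters (GRCh38.p14, 250 bases before to 50 after each annotated start), of which the table holds 48 for 37 of the 44 genes. AURKA, BIRC5, BUB3, FOXM1, TPX2, TTK and UBE2C have no entry. TTTGAA was in 32 of the 48 promoters (66.7%) and in 15.2% of all 35116 promoters, and CCAAT in 34 (70.8%) and 34.6%. Both stood together in 25 of the 48 (52.1%), against 5.90% of all promoters. An E2F site, searched as TTTCGCGC or TTTGGCGC, was in 4 of the 48 (8.33%), against 1.15%. By gene, TTTGAA was in 29 of 37 (78.4%), against 15.8% of 14896 protein-coding genes, and CCAAT in 30 (81.1%), against 42.3%. Both in the same promoter were in 23 (62.2%), against 6.59%, and the E2F site in 3 (8.11%), against 1.92%. Promoters of the same gene can overlap, as those of CDK1 do, so a site can be counted more than once. No motif contains another, on either strand, and a match is a description of the sequence, not a site shown to be bound. Only these exact letters were searched, so a promoter without TTTGAA is not shown to lack a CHR.

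Matches clustered near the start. Of 45 TTTGAA matches 31 began within 50 bases of the start on either side, and of 66 CCAAT matches 46 began in the 100 bases before it. Positions were not counted over all promoters, so these positions are not shown to be particular to the mitotic genes. A site in overlapping promoters of the same gene is counted in each of them. Of 29 genes with TTTGAA 19 fell and 1 rose, with a median log2 fold change of -0.14. Of 8 without these exact letters 5 fell, with a median of -0.12. For CCAAT the order was the other way: 18 of 30 genes with it fell and 6 of 7 without it, with medians of -0.14 and -0.15. With both motifs in 1 promoter 14 of 23 genes fell, and of the others 10 of 14. None of these differences was tested. The promoters below are shown because they are those of a cyclin, of a checkpoint target and of ANLN, whose log2 fold change was the lowest of the 44, and they hold 3 different arrangements of the motifs. Matches to TTTGAA, to its reverse complement TTCAAA and to CCAAT are in capitals, and distances count the first base of a match from the start. The promoter of CCNB1 (chr5:69166900-69167199, plus strand) has CCAAT at -87 and -55 and no TTTGAA, the only form of the CHR searched. That of CDC20 (chr1:43358731-43359030, plus strand) has CCAAT at -100 and -55, TTTGAA at -65 and its reverse at -178. That of ANLN (chr7:36389612-36389911, plus strand) has no CCAAT, and a TTTGAA and its reverse side by side at -20 and -26.
CCNB1: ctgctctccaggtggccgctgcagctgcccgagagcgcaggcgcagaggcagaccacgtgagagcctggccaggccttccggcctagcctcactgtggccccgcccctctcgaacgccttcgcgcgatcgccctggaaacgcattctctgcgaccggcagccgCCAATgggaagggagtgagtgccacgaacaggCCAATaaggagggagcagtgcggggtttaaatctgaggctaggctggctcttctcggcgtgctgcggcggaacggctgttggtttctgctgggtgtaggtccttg
CDC20: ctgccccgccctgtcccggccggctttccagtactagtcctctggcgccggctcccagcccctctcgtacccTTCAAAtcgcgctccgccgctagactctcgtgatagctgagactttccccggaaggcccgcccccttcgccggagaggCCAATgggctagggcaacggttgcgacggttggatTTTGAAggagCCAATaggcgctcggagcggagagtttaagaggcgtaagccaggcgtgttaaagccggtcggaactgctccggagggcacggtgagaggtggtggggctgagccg
ANLN: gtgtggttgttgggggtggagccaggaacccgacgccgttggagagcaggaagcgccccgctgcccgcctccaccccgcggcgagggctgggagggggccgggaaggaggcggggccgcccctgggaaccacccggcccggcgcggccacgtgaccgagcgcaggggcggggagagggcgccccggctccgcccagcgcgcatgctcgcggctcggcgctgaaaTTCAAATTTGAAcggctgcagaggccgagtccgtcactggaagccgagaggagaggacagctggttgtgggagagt

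**Figure D2:**
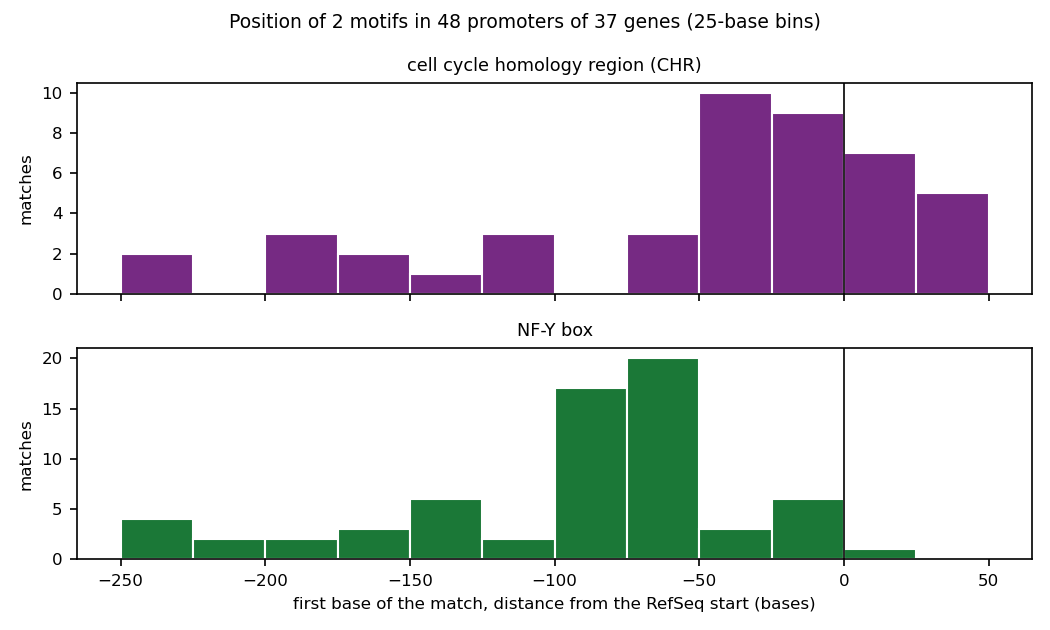
The x axis is the distance of the first base of a match from the RefSeq start, in bases, and the y axis the number of matches in bins of 25 bases, for the CHR motif (upper panel, 45 matches) and the NF-Y box (lower panel, 66 matches) in 48 promoters of 37 genes. CHR matches pile up within 50 bases of the start and NF-Y box matches in the 100 bases before it. Positions over all promoters were not counted. A site in overlapping promoters of the same gene is counted in each of them.

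Cyclins and the switch for CDK1 fell in part. Of the 6 genes, CDC25B, CCNB2 and CCNB1 fell, 0 rose, and CDC25C, CCNA2 and CDK1 did not pass the test. CDC25B, a phosphatase that starts the activation of CDK1 at the centrosome (ENSG00000101224, chromosome 20, 3786772 to 3806121, plus strand), had 221, 239 and 229.9 CPM in untreated libraries and 203, 204 and 202 CPM with TGF-β1. All treated libraries lay below all untreated ones, and the log2 fold change was -0.18 ± 0.035 (SE; adjusted p = 4.31e-05). CCNB1, the main mitotic cyclin (ENSG00000134057, chromosome 5, 69167010 to 69178245, plus strand), went from 453, 439 and 449 to 432, 417 and 421 CPM, again without overlap, a log2 fold change of -0.079 ± 0.031 (adjusted p = 0.0367). This call was lost in 8 of 18 alternative settings, with adjusted p up to 0.172. Cyclin B2 (CCNB2) fell by 0.14 on the log2 scale, from 108, 103 and 108 to 97.9, 97.6 and 93.1 CPM.

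CDK1, the kinase that all of these serve (ENSG00000170312, chromosome 10, 60778331 to 60794852, plus strand), was measured at 122, 116 and 126 CPM in untreated libraries and 123, 117 and 118 CPM with TGF-β1. The groups overlapped, and the log2 fold change was -0.024 ± 0.042, with a 95% interval of -0.11 to 0.060 (adjusted p = 0.698). CCNA2, the cyclin of S phase and early mitosis, had 175.3, 172.9 and 176.0 and 162.3, 172.5 and 170.6 CPM, with a 95% interval of -0.13 to 0.021. CDC25C had 24.4, 25.9 and 24.3 and 20.7, 24.1 and 22.7 CPM. In both of these genes each treated library was below each untreated one, yet neither passed the test (adjusted p = 0.276 and 0.175), and with library totals alone both passed, as did CDK1 (-0.14, adjusted p = 0.00437). CCNA2 also passed with upper-quartile factors (adjusted p = 0.0301).

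Among the mitotic kinases AURKA fell and AURKB, PLK1 and PLK4 did not pass the test. AURKA, the Aurora kinase of the centrosome and spindle poles (ENSG00000087586, chromosome 20, 56369389 to 56392337, minus strand), had 187, 183 and 189.6 CPM in untreated libraries and 158, 160.3 and 162 CPM with TGF-β1. It fell by 14.2% without overlap between groups, a log2 fold change of -0.22 ± 0.036 (adjusted p = 1.90e-06). AURKB, the Aurora kinase of the chromosomal passenger complex, had 68.9, 74.8 and 74.3 and 68.6, 72.9 and 67.6 CPM. These overlapped, with a 95% interval of -0.16 to 0.043 for the log2 fold change. The other passenger gene of the list, BIRC5, which encodes survivin, fell from 192, 183 and 185 to 162, 166 and 171 CPM (-0.17 ± 0.036; adjusted p = 2.19e-04). PLK1, the polo-like kinase of mitotic entry and spindle assembly, had 111, 115 and 116 and 109.8, 106 and 110.2 CPM, separated but not called (adjusted p = 0.202). PLK1 was called as lower with upper-quartile factors (adjusted p = 0.0266), and with library totals alone so were PLK1 (2.45e-04) and AURKB (0.0035). PLK4, which starts centriole duplication, had a log2 fold change of 0.040 ± 0.051 with overlapping groups, and its sign turned with upper-quartile factors (-0.0051) and with library totals alone (-0.079). Whether AURKA and AURKB differ in their response was not tested.

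Of the spindle checkpoint genes BUB3, BUB1 and BUB1B fell, and MAD2L1 and TTK did not pass the test. BUB1, a kinase that recruits checkpoint proteins to kinetochores (ENSG00000169679, chromosome 2, 110637698 to 110678114, minus strand), had 165, 164 and 162 CPM in untreated libraries and 144, 139.7 and 144 CPM with TGF-β1, a log2 fold change of -0.20 ± 0.037 (adjusted p = 1.79e-05). BUB3, its binding partner, went from 364, 371 and 374 to 328, 321 and 312 CPM (-0.21 ± 0.032; adjusted p = 6.30e-07). In BUB1 and in BUB3 every treated library was below every untreated one. BUB1B, which encodes BUBR1, a part of the mitotic checkpoint complex, fell by 0.13 with 1 overlap between groups (88.98, 95.7 and 93.6 and 83.4, 82.1 and 89.4 CPM), and 7 of 18 alternatives did not call it. MAD2L1, the checkpoint protein that binds CDC20, had 94.6, 95.4 and 89.8 and 90.6, 98.9 and 100.2 CPM, a log2 fold change of 0.050 ± 0.046 that was -0.069 with library totals alone. TTK, the kinase also known as MPS1 that starts the checkpoint signal, had 94.8, 98.3 and 93.7 and 93.8, 96.9 and 93.3 CPM. Its 95% interval was -0.10 to 0.074, and with library totals alone it was called as lower (-0.13, adjusted p = 0.0117).

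The checkpoint acts on CDC20, the activator of the anaphase-promoting complex, and UBE2C encodes the ubiquitin-conjugating enzyme that works with the complex. UBE2C (ENSG00000175063, chromosome 20, 45812576 to 45816957, plus strand) fell from 185, 174 and 186 to 161, 166 and 165 CPM, a log2 fold change of -0.15 ± 0.037 (adjusted p = 7.88e-04). CDC20 (ENSG00000117399, chromosome 1, 43358955 to 43363203, plus strand) had 129.5, 138 and 133 CPM in untreated libraries and 128, 129 and 128 CPM with TGF-β1. The groups of CDC20 were separated, but its log2 fold change of -0.056 ± 0.039 did not pass the test (adjusted p = 0.28). It was called as lower with upper-quartile factors (adjusted p = 0.0377) and with library totals alone (2.93e-04).

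**Figure D3:**
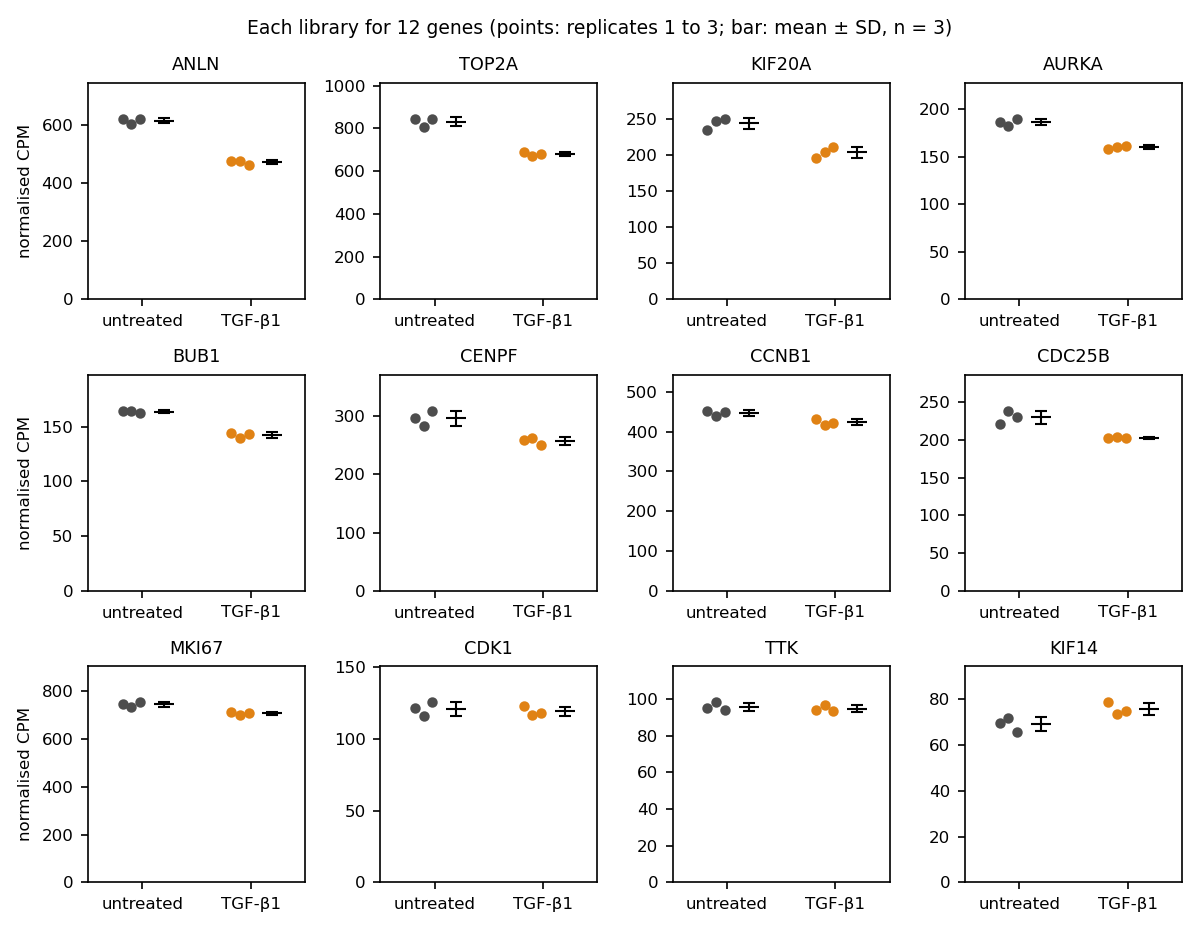
Normalised CPM (y axis, from 0) of 12 genes in each library, with untreated libraries in grey and TGF-β1 libraries in orange; each bar is the mean ± SD of 3 libraries. ANLN, TOP2A, KIF20A, AURKA, BUB1, CENPF, CCNB1, CDC25B and MKI67 are lower in every TGF-β1 library, CDK1 and TTK overlap, and KIF14 is higher.

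Of 9 kinesins 8 fell and 1 rose; CENPE, a kinesin of the kinetochore, is counted with the kinetochore genes. KIF18A, a kinesin that dampens chromosome oscillation at the metaphase plate (ENSG00000121621, chromosome 11, 28020620 to 28108308, minus strand), fell from 33.01, 31.1 and 33.1 to 26.9, 24.5 and 23.8 CPM, that is by 22.6%, a log2 fold change of -0.37 ± 0.075 (adjusted p = 7.60e-05). KIF20A, a central spindle kinesin needed for cytokinesis (ENSG00000112984, chromosome 5, 138178719 to 138187715, plus strand), fell from 235, 247 and 249 to 196, 204 and 211 CPM (-0.26 ± 0.036; adjusted p = 8.27e-08). KIF11, the motor that pushes the spindle poles apart (ENSG00000138160, chromosome 10, 92593286 to 92655395, plus strand), fell from 166, 153 and 168 to 143, 144 and 142 CPM (-0.18 ± 0.039; adjusted p = 1.76e-04). In each of these 3 genes all treated libraries lay below all untreated ones. The microtubule depolymerase KIF2C had a log2 fold change of -0.15, the spindle motor KIF15 -0.14, the chromokinesin KIF4A -0.14, the cytokinesis motors KIF20B and KIF23 -0.13 and -0.093. KIF15 was the only gene among these 5 with an overlap between groups, and its call was lost in 9 of 18 alternatives.

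KIF14, a kinesin of the midbody that acts in cytokinesis (ENSG00000118193, chromosome 1, 200551497 to 200620734, minus strand), went the other way. It had 69.7, 71.9 and 65.8 CPM in untreated libraries and 78.7, 73.5 and 74.8 CPM with TGF-β1, so that every treated library was above every untreated one. Its log2 fold change was 0.13 ± 0.050 (adjusted p = 0.0339), the only rise among the 44 genes. This call was lost in 9 of 18 alternatives, among them these: with library totals alone the value was 0.011 (adjusted p = 0.884), without untreated replicate 1 the adjusted p was 0.0676, without untreated replicate 3 it was 0.207 and without TGF-β1 replicate 1 it was 0.128.

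At the kinetochore, SPC25, NUF2, CENPF and NDC80 fell and CENPE and CENPA did not pass the test. NDC80, NUF2 and SPC25 encode 3 subunits of the NDC80 complex, which ties kinetochores to microtubules. NDC80 (ENSG00000080986, chromosome 18, 2571511 to 2616635, plus strand) fell from 90.4, 87.2 and 88.2 to 80.1, 80.6 and 75.8 CPM (-0.17 ± 0.046; adjusted p = 0.00272). NUF2 went from 48.7, 52.3 and 46.5 to 39.2, 42.1 and 44.5 CPM (-0.23 ± 0.063; adjusted p = 0.0029), and SPC25 from 19.8, 18.05 and 19.8 to 15.04, 15.9 and 16.7 CPM (-0.28 ± 0.092; adjusted p = 0.0145). The groups of all 3 subunits were separated. The SPC25 call was lost in 3 of 18 alternatives and the NUF2 call in 1. CENPF, a large protein of the outer kinetochore (ENSG00000117724, chromosome 1, 214603195 to 214664588, plus strand), fell from 296, 283 and 309 to 258, 262 and 249 CPM (-0.20 ± 0.035; adjusted p = 5.19e-06). CENPA, the histone variant that marks the centromere, had 28.2, 29.04 and 28.1 and 29.8, 25.3 and 28.00 CPM, and TGF-β1 replicate 2 was the lowest of the 6 libraries. Without it the log2 fold change of CENPA was 0.026 in place of -0.039. CENPE, a kinesin at the kinetochore, lay just outside the threshold with -0.10 ± 0.042 (adjusted p = 0.0534).

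The spindle proteins HMMR, ASPM, DLGAP5 and TPX2 fell. TPX2, which activates AURKA on spindle microtubules (ENSG00000088325, chromosome 20, 31739271 to 31801805, plus strand), went from 449, 443 and 436 to 423, 426 and 409.6 CPM, a log2 fold change of -0.076 ± 0.031 (adjusted p = 0.0456) whose call was lost in 10 of 18 alternatives. HMMR, which encodes a hyaluronan receptor that also organises spindle poles, fell from 84.6, 83.6 and 88.4 to 71.8, 71.5 and 73.4 CPM (-0.24 ± 0.047; adjusted p = 3.78e-05). ASPM, a spindle pole protein, fell by 0.16 and DLGAP5, a protein that stabilises spindle microtubules, by 0.13. NUSAP1 and PRC1, both microtubule-bundling proteins, did not pass the test and are treated below.

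Both genes grouped under cytokinesis fell. ANLN, which encodes anillin, the scaffold of the contractile ring (ENSG00000011426, chromosome 7, 36389806 to 36453791, plus strand), had 619, 603 and 619 CPM in untreated libraries and 476, 476 and 462 CPM with TGF-β1. Its lowest untreated library was far above its highest treated library, and it fell by 23.2%, a log2 fold change of -0.38 ± 0.030 (adjusted p = 2.21e-14). It was called in all 18 alternatives, with values from -0.50 to -0.36. The value of KIF18A lay within its SE of that of ANLN, so no order is read between them. ECT2, the exchange factor that switches on RhoA at the cleavage site, fell from 114, 117 and 116 to 98.2, 96.5 and 97.6 CPM (-0.25 ± 0.042; adjusted p = 4.44e-06). The summed level of both genes with TGF-β1 was 0.780 times that of the untreated libraries, against 0.887 to 0.935 times for the other 8 roles.

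TOP2A, the topoisomerase that untangles chromosomes before they part (ENSG00000131747, chromosome 17, 40388516 to 40417950, minus strand), fell from 842, 808 and 844 to 687, 669.6 and 682 CPM, a log2 fold change of -0.29 ± 0.029 (adjusted p = 3.19e-11). MKI67, the proliferation marker Ki-67, which coats mitotic chromosomes (ENSG00000148773, chromosome 10, 128096659 to 128126385, minus strand), had 746, 731 and 753 CPM in untreated libraries and 711, 700.3 and 708 CPM with TGF-β1. The groups of MKI67 were separated by a small step, -0.074 ± 0.029 on the log2 scale (adjusted p = 0.0363), and 8 of 18 alternatives did not call it. FOXM1, the transcription factor that drives many of these genes (ENSG00000111206, chromosome 12, 2857681 to 2877155, minus strand), fell from 258, 269 and 255 to 248, 237 and 242 CPM (-0.11 ± 0.034; adjusted p = 0.0108), with the call lost in 3 of 18 alternatives. Other annotated exons on the opposite strand, those of ITFG2, cover 15.9% of the exonic bases of FOXM1.

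Counting each alternative, 17 of the 30 genes that fell did so in all 18, among them ANLN, KIF18A, TOP2A, KIF20A, AURKA and BUB1. The other 13 lost the call in at least 1 and none of them turned its sign. For 11 of these, leaving out a single library was enough. CCNB1 and MKI67 were not called without untreated replicate 1 or 3 or TGF-β1 replicate 2 or 3, with adjusted p up to 0.172 and 0.144, and KIF15 without any of the same 4 libraries, with adjusted p up to 0.293. BUB1B was not called without untreated replicate 2 or 3 or TGF-β1 replicate 1 or 2 (up to 0.152), and TPX2 without any library but untreated replicate 3 (up to 0.265). KIF23 was not called without any of the TGF-β1 libraries (up to 0.067), SPC25 without untreated replicate 1 or 3 or TGF-β1 replicate 1 (up to 0.0633), and FOXM1 without replicate 2 of either group (up to 0.0844). CCNB2 was not called without TGF-β1 replicate 3 (0.064), and DLGAP5 and KIF20B without untreated replicate 1 (0.0764 and 0.0732). In the other direction, CENPE was called as lower without replicate 2 of either group (0.00835 and 0.0496), and NUSAP1 without TGF-β1 replicate 3 (0.0305). Both were also called with library totals alone (2.84e-05 and 0.019), and CENPE with upper-quartile factors (0.00422) and with the filter of 1 CPM in 3 libraries (0.0335). These p-values are from edgeR with Benjamini-Hochberg adjustment.

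**Figure D4:**
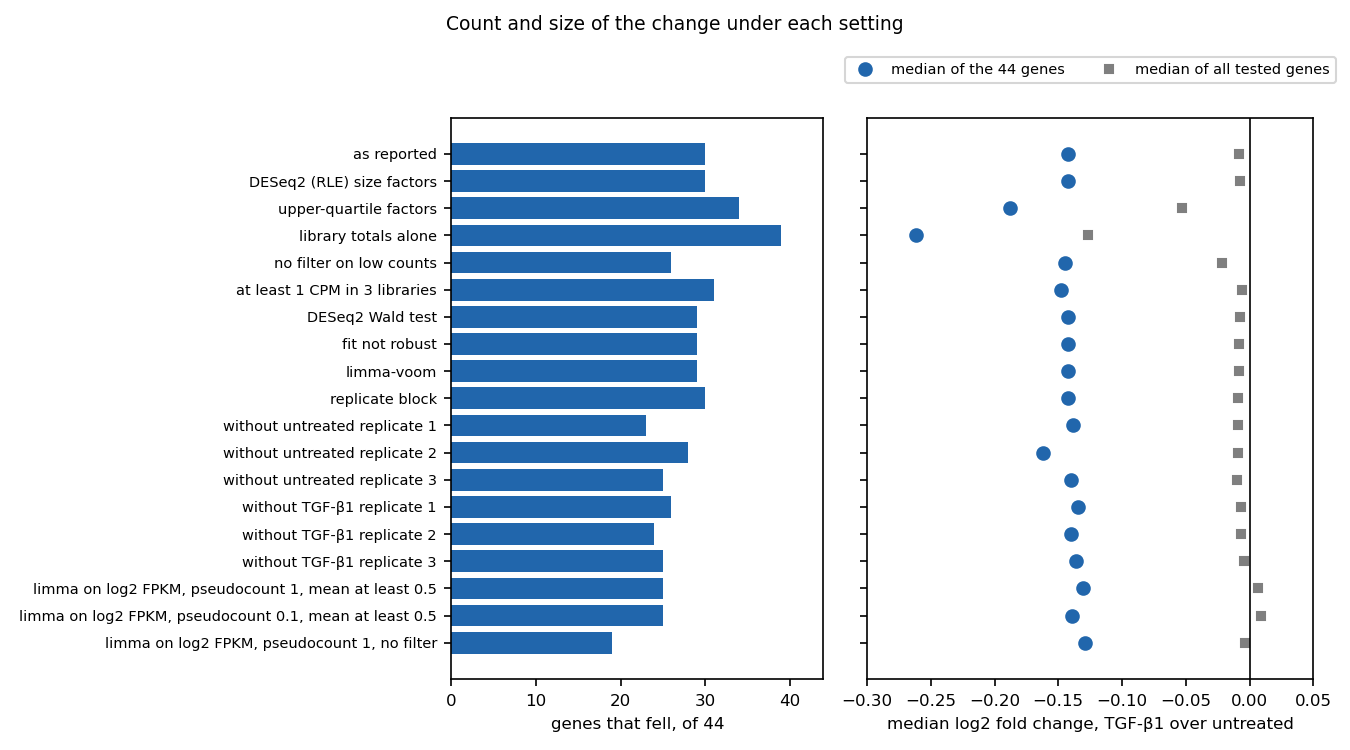
The left panel gives, for the reported fit and 18 alternatives (y axis), how many of the 44 genes fell; the right panel gives the median log2 fold change, TGF-β1 over untreated, of the 44 genes (blue circles) and of all tested genes (grey squares). Counts run from 19 to 39 of 44, and the blue circle lies left of the grey square in every row, with both shifted left when library totals alone set the scale. Rows that differ only in scaling shift both medians alike, so the distance in them is no separate check.

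Levels of different genes were compared per length, with the deposited FPKM values. The length is that of all annotated exons of a gene, 3931 bases for CDK1, not that of the transcripts expressed. The order of genes can therefore depend on the annotation. In untreated libraries CCNB1 was the highest of the 44, at 169.5 ± 3.15 FPKM (SD, n = 3), followed by UBE2C at 137 ± 5.19, TOP2A at 125 ± 3.19, TPX2 at 119 ± 2.01 and ANLN at 99.1 ± 1.69. CDK1 was far lower than its cyclin, at 29.9 ± 1.23 FPKM, and CCNB2 stood at 36.8 ± 0.999 and CCNA2 at 60.6 ± 0.658. The NDC80 complex genes were unequal, with NDC80 at 23.9 ± 0.509, NUF2 at 14.2 ± 0.824 and SPC25 at 10.1 ± 0.556 FPKM. The order hardly moved with TGF-β1: no gene shifted by more than 2 ranks of 44, and CCNB1 remained first at 161 ± 2.91 FPKM. TOP2A stood above TPX2 in untreated libraries and below it with TGF-β1, at 103 ± 1.47 against 113 ± 2.21 FPKM.

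**Figure D5:**
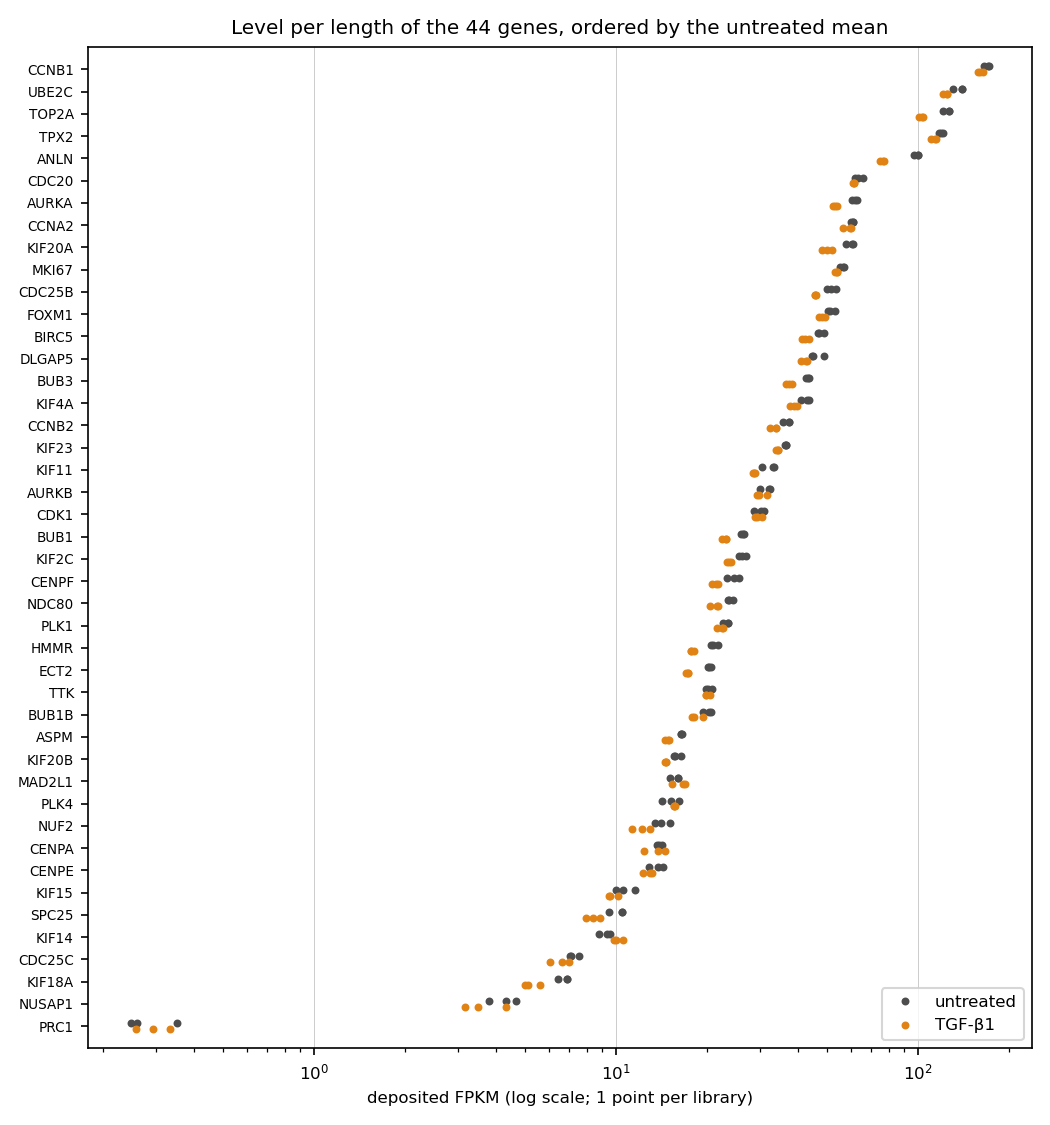
Deposited FPKM (x axis, log scale) of the 44 genes (y axis), ordered by the untreated mean, with 1 point for each untreated (grey) and each TGF-β1 (orange) library. The 44 genes span from 0.286 FPKM for PRC1 to 169.5 FPKM for CCNB1, PRC1 and NUSAP1 lie apart at the bottom, and orange points lie to the left of grey ones for most genes.

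PRC1 and NUSAP1 were the lowest of the 44 per length, at 0.286 ± 0.056 and 4.27 ± 0.438 FPKM in untreated libraries. They were also the genes whose exons are shared most with another gene. In GENCODE release 29, whose gene positions equal those of the table for all 58735 genes, exons of other genes cover 58.4% of the exonic bases of PRC1 and 62.2% of those of NUSAP1. The same shares are at most 15.9% for the other 42 genes, and 17 of the 44 have any. On the same strand, BUB1B shares 10.2% with BUB1B-PAK6, which had 0 counts in every library. CENPA shares 6.96% on the same strand with SLC35F6, which had 64.2 to 76.6 CPM. The effect on either gene was not tested. The gene that covers most of the shared bases is AC068831.7 for PRC1 and AC087721.2 for NUSAP1, both annotated as protein-coding and on the same strand. AC068831.7 had 427, 448, 338, 290, 352 and 283 counts over the 6 libraries, and PRC1 44, 45, 56, 41, 42 and 49. AC087721.2 had 0 counts in every library, and NUSAP1 had 351, 392, 388, 231, 296 and 331. The sources used here do not say how reads in shared exons were counted. The levels of PRC1 and NUSAP1 are therefore uncertain, and a loss of counts there was not tested. Their log2 fold changes, 0.040 ± 0.29 and -0.22 ± 0.12, had 95% intervals of -0.55 to 0.63 and -0.47 to 0.019.

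Named copies of the members took few counts. The retrogene KIF4B had 14 to 34 counts in a library against 4582 to 6349 for KIF4A, and none of the 12 pseudogenes named after a member exceeded 14 counts in a library.

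Other genes of mitosis, from lists of named genes outside the 44, were read from the same fit. These lists were chosen with results of this series known. Their counts stand beside 18.7% lower and 20.2% higher over all tested genes, and beside 31.1% lower with library totals alone; a list with shares near these shows nothing of its own. Of 17 further spindle and kinesin genes 8 fell and 0 rose, with a median of -0.11: the spindle protein genes PSRC1, CKAP2 and the centrosomal kinase NEK2 had the largest changes (-0.35, -0.32 and -0.25). Of 28 further kinetochore and centromere genes 7 fell and 5 rose, shares near those of all tested genes, with a median of -0.043. CENPM (-0.43), the NDC80 complex subunit SPC24 (-0.40) and OIP5 (-0.36) fell most. Those that rose were MIS12 (0.23), SKA1 (0.22), CENPK (0.22), CENPW (0.21) and CENPO (0.21). With library totals alone the list gave 12 lower and 0 higher, beside the 31.1% lower of all tested genes.

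The fourth NDC80 complex gene, SPC24, also fell, from 25.3, 22.9 and 31.2 to 21.4, 18.9 and 19.97 CPM (adjusted p = 5.77e-04). Of 6 tested genes grouped here as cytokinesis partners 3 fell and 0 rose, namely RACGAP1 (-0.25), which binds ECT2, DEPDC1 (-0.24) and the citron kinase CIT (-0.13). A part of DEPDC1 in cytokinesis is not shown by these data. Of 8 condensin subunits NCAPD2 (-0.21) and NCAPD3 (-0.17) fell and 0 rose. Of 8 genes of the passenger complex, separase and cohesion, CDCA8 (-0.20), which encodes borealin, fell and 0 rose.

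Of 17 genes of the anaphase-promoting complex 1, the subunit ANAPC13 (-0.60), fell and 3 rose: FBXO5 (0.50), which encodes the inhibitor EMI1, the activator FZR1 (0.26) and the subunit CDC23 (0.12). FBXO5 had 45.9, 46.2 and 48.3 CPM in untreated libraries and 65.4, 66.2 and 66.5 CPM with TGF-β1, without overlap (adjusted p = 2.21e-10). Of 12 genes of G2/M entry control 4 fell and 1 rose. CDCA3 (-0.41), the stress gene GADD45A (-0.19), CCNG2 (-0.18) and CKS2 (-0.15) fell, and SFN, the 14-3-3 sigma gene, rose from 2.33, 2.33 and 3.96 to 6.95, 6.63 and 6.53 CPM (1.23).

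Of 13 genes of the DREAM and MuvB complexes, which act through the CHR, 2 fell and 2 rose, shares no higher than those of all tested genes. MYBL2, which encodes the B-MYB subunit that joins MuvB in S phase and G2, rose from 296, 307 and 294 to 387, 402 and 405 CPM, a log2 fold change of 0.41 ± 0.032 (adjusted p = 2.35e-14), and its groups did not overlap. The repressor subunit E2F4 rose (0.16), and the pocket protein gene RBL1 (-0.21) and RBBP4 (-0.29) fell. With library totals alone 7 of these genes fell and 1 rose, again beside 31.1% lower of all tested genes.

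The DNA replication and E2F genes, transcribed earlier in the cycle, gave 18 lower and 2 higher of 34, with a median of -0.18 beside the -0.14 of the 44 mitotic genes. E2F2 (-0.84), E2F8 (-0.57) and the helicase subunit MCM2 (-0.45) fell most, and E2F3 (0.24) and MCM10 (0.22) rose. The difference between both lists was not tested.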

How the data were processed

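RNA of LX-2 cells was sequenced in 6 libraries, 3 a group. The authors deposited a table of raw counts per gene and a table of FPKM values (counts relative to gene length and library size) with gene lengths, both per the file headers. Reads were handled with fastp and HISAT2 2.2.1 on hg38, per the submitters' processing notes. The counting tool, its strand setting and its handling of shared exons are not named in any source used here. Each table holds 6 further per-sample columns that belong to no sample analysed here, and these were not used.

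The counts were tested with edgeR 4.0.16 (R 4.3.3): TMM factors, the filterByExpr filter (a minimum count of 10 and a minimum total of 15, as preset), robust quasi-likelihood fit, two-sided, Benjamini-Hochberg over 17215 genes, threshold 0.05. The SE is the log2 fold change over the root of F, and ± is this SE for a log2 fold change and the SD for a level. Alternatives used other scaling factors and filters, DESeq2 1.42.0, limma 3.58.1 (voom, and log2 of FPKM plus 1 or 0.1), a replicate block and each library left out. FPKM served for levels between genes. Exon overlaps were computed from GENCODE release 29 and promoter motifs from RefSeq. The fit was tested on simulated data. Depth was 25828504 to 30034762 counts a library. Precision was lowest for the 6 mitotic genes under 30 CPM, with SE from 0.075 to 0.29, and the part of depth in this was not tested.

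The 44 genes, the roles and the other lists were chosen with earlier results of these data known. Per-library values were given for up to 3 called genes of each role with the largest change and for a list of well-known genes, and for other lists up to 3 called genes and those against the majority; further genes were named after their values were seen.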

Additional observations from a re-analysis of the deposited data

How the results depend on the processing

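Library totals alone moved the median of all tested genes by over 0.1 on the log2 scale, from -0.0082 to -0.13. With library totals alone 27.4% of calls over all genes were higher, against 51.8% with TMM. There the 44 mitotic genes gave 39 lower and 0 higher and a median of -0.26, with 0 genes separated upwards; PLK4 (-0.079), MAD2L1 (-0.069) and PRC1 (-0.078) turned negative. In the other lists, library totals gave 12 lower and 0 higher among kinetochore genes, 15 lower spindle and kinesin genes, 6 lower passenger genes, 5 lower cytokinesis partners, 7 lower condensin genes, 6 lower genes of the anaphase-promoting complex, 7 lower and 1 higher DREAM gene, and 0 higher replication genes. Upper-quartile factors gave 0 higher mitotic genes and 0 separated upwards, a median of -0.19, 3 lower passenger genes, 4 lower condensin genes and 2 lower genes of the anaphase-promoting complex, and turned PLK4 (-0.0051) and PRC1 (-0.0045). Without a filter on low counts, and with limma on FPKM under each of its 3 settings, 0 mitotic genes rose; with FPKM and no filter 19 fell, with a median of -0.13.

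Leaving out 1 library at a time gave 23 to 28 lower and 0 to 1 higher mitotic genes, a median from -0.16 to -0.13 and 1 to 2 genes separated upwards. In the other lists it gave 2 to 5 higher kinetochore genes, 1 to 2 lower passenger genes, 2 to 4 lower condensin genes, 1 to 2 lower and 2 to 5 higher genes of the anaphase-promoting complex, 2 to 3 lower and 1 to 2 higher G2/M entry genes, and 1 to 2 higher replication genes. The sign turned for PLK4 (-0.010 to 0.083), TTK (-0.032 to 0.0022), CENPA (-0.089 to 0.026) and PRC1 (-0.057 to 0.21), none of them called. Searching only the 250 bases before the start found TTTGAA in 47.9% of the promoters, against 66.7% over the whole window; over all promoters the shares were 13.3% and 15.2%. Fewer libraries or a shorter window are part of these alternatives; for the other changes the cause was not tested.

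Same-numbered libraries did not deviate together (correlations of -0.011, -0.0013 and -0.011), so the numbers were not taken as pairs. With a replicate block 30 mitotic genes fell and 1 rose, and 18.5% of all tested genes fell.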
